A study of Mus musculus with 4 samples.

Results

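Ribosome footprints were examined on 10 genes of the extracellular matrix, chosen by Ensembl ID out of the 53465 gene IDs in the count table, which holds no symbols; the symbols came with the list of IDs. The genes code for interstitial collagens (Col1a1, Col1a2, Col3a1), for basement membrane proteins (Col4a1, Col4a2, Lama5, Lamb1, Lamc1, Hspg2) and for the matricellular protein Sparc. All 10 IDs were in the table, and 7 passed the filter on low counts. The libraries came from MLE-12, an immortalised mouse lung epithelial line that stands in for type 2 alveolar cells, derived from tumours of mice that express a viral large T antigen in the distal lung. Cells exposed for 12 h to 5 µM 1-nitropyrene, a nitroarene pollutant found in diesel soot (replicates 2 and 3), were compared with cells cultured without it (control replicates 1 and 2). Before lysis all cells had a cold rinse containing cycloheximide, an inhibitor that freezes ribosomes on their mRNA. The series concerns epithelial senescence in lung fibrosis caused by 1-nitropyrene, and the comparison asks whether ribosomes on matrix genes were more or less abundant in exposed epithelial cells. Markers of the epithelial line and of other cell types were not analysed here, since their IDs could not be tied to symbols.

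Epithelial cells rest on a basement membrane, a sheet built from a laminin network and a collagen IV network that are linked by nidogen and by the heparan sulfate proteoglycan perlecan. Beneath it lies the interstitial matrix, whose fibrils of collagen I and collagen III are made mainly by fibroblasts and accumulate in fibrosis. Collagen IV protomers of the common type combine alpha 1 chains (Col4a1) with an alpha 2 chain (Col4a2), and laminin-511, a main laminin of the alveolar basement membrane, joins the alpha 5 (Lama5), beta 1 (Lamb1) and gamma 1 (Lamc1) chains. A footprint count reflects both the amount of an mRNA and the density of ribosomes on it. With no RNA libraries analysed here, those parts, and in a bulk sample also fewer cells against less RNA per cell, cannot be told apart.

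Col4a1 and Col4a2 lie head to head and are known to be transcribed in opposite directions from a shared promoter region. Their sequences are shown because the footprints of this gene pair parted in exposed cells. In the RefSeq annotation of GRCm38.p6, the assembly of the mm10 build used for the counts, Col4a1 spans chr8:11198423-11312889 on the minus strand and Col4a2 spans chr8:11312805-11449287 on the plus strand, so that the annotated genes overlap by 85 bases at their 5′ ends. Counts in that overlap could belong to either gene, as the strand setting of the counting is not given in the sources used here. The stretch between the start sites of the promoter table (chr8:11312805-11312826, plus strand) has 22 bases. The 187 bases upstream of every annotated Col4a1 start (chr8:11312890-11313076, minus strand) lie inside the Col4a2 gene. The third sequence is the upstream region of Hspg2 (chr4:137468553-137468750, plus strand), the other basement membrane gene with lower values in exposed cells. Capitals mark the GC box GGGCGG, the core of Sp1 sites, and the CCAAT box, the core of NF-Y sites, each searched on both strands.
Col4a1/Col4a2 starts: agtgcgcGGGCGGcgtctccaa
Col4a1 upstream: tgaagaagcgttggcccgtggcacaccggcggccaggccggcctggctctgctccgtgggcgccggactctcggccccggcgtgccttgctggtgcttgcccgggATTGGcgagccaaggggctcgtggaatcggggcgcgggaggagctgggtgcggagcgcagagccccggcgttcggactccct
Hspg2 upstream: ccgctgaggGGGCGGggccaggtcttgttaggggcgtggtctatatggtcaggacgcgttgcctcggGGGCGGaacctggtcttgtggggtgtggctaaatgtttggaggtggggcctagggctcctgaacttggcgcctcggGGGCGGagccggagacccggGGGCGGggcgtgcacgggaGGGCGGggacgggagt

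RefSeq promoter windows of 300 bases (250 before to 50 after a start) matched 8 of the 10 genes. Col1a1 and the basement membrane gene Lamc1 had no window. GGGCGG occurred in all 5 windows of basement membrane genes, with 5 matches at Hspg2, 4 at Lama5, 3 at Col4a2, 2 at Lamb1 and 1 at Col4a1. The windows of Col4a1 and Col4a2 share 78 bases, and the 1 match at Col4a1 lies in them. It is therefore also among the 3 at Col4a2, and the 5 windows are not separate. Of the other windows, Col1a2 had 2 matches and Col3a1 and Sparc had 0; the motif occurs in 35.7% of the 32851 windows in the table. CCAAT had 1 match each at Col4a1, Col4a2 and Lamb1 and 0 at Lama5 and Hspg2, while Col1a2 had 2 and Col3a1 and Sparc had 0, against 37.4% of all windows with a match. The TATA box TATAAA, searched on both strands, was found in the Col3a1 window, and in 13.6% of all windows. No match of one motif overlapped a match of another in these windows. The GC content ran from 63.7% at Lamb1 to 74.0% at Col4a1 among the basement membrane genes, and was 61.0% at Col1a2, 55.3% at Sparc and 37.7% at Col3a1. Of all windows, 79.1% had a lower GC content than Lamb1 and 95.2% a lower one than Col4a1. GGGCGG holds only G and C, and its share among windows of like GC content was not computed. A link between these windows and the footprint changes was not tested. A match is a description of letters only.

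The 1-nitropyrene libraries held 1243186 and 1357034 counts and the control libraries 1261372 and 1136145. The 10 genes together took 0.179% of the counts in either 1-nitropyrene library, against 0.207% and 0.209% in the control libraries. These are shares of unscaled totals, and on that scale the median log2 fold change of all genes tested was also below 0, at -0.17. Levels are given in CPM, counts per 1000000 counts after scaling the libraries with TMM, on which 1 count was worth 0.761 to 0.860 CPM. Where a gene had 0 counts its level could still be as high as 3 counts, which is 2.28 to 2.58 CPM; these limits and the binomial intervals given for shares cover counting error only. The labels do not state whether replicates were grown as separate cultures, and the p-values therefore rest on a spread between samples that may be technical. Coding lengths were not used here, so levels are compared between libraries and not between genes.

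The interstitial collagens were listed at 0 in every library. Col1a1 (chr11:94936224-94953042) and Col1a2 (chr6:4505618-4541543), the chains of the main fibrillar collagen of scar tissue, and Col3a1 (chr1:45311538-45349706), the chain of the finer collagen III fibrils, each had 0 counts in both 1-nitropyrene libraries and 0 in both control libraries, out of 4997737 counts in all. Of all IDs in the table, 74.3% were likewise at 0 in every library. Set against the 1078 and 1159 basement membrane counts of the 1-nitropyrene libraries, 0 interstitial counts allow a share of up to 0.278% and 0.259%. Against the 1307 and 1163 basement membrane counts of the control libraries the limits are 0.230% and 0.258%. These limits hold only if reads on these genes would have been counted, and whether the 0s reflect the cells or the counting cannot be told from the table. No difference between the groups in these collagens could be measured, and no fold change is given.

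Col4a1 (ENSMUSG00000031502) fell in exposed cells, while its partner Col4a2 did not pass the test. Col4a1 had 237 and 280 counts, or 204 and 222 CPM, in the 1-nitropyrene libraries, against 413 and 344 counts, or 314 and 290 CPM, in the control libraries. Both exposed libraries lay below both control libraries, with a gap wider than the spread within either group. The level averaged 213 ± 12.6 CPM in exposed cells and 302 ± 16.9 CPM in control cells (SD, n = 2 each), which is 70.5% of the control level (log2 fold change -0.51 ± 0.10 SE, 95% interval -0.71 to -0.30, adjusted p = 2.34e-05 by the quasi-likelihood test of edgeR with Benjamini-Hochberg adjustment). It was the only one of the 7 matrix genes tested that was called at an adjusted p under 0.05; among all 7719 genes tested 17.3% were called, 7.58% as lower and 9.68% as higher. Col4a1 is among the more deeply covered genes, and in the most deeply covered of 4 equal bins of the genes tested 36.4% were called and 11.7% called lower. Of all genes tested, 17.5% had a lower log2 fold change than Col4a1. A count of 1 in 7 is thus near the background.

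Col4a2 (ENSMUSG00000031503) had 244 and 248 counts in the 1-nitropyrene libraries and 249 and 223 in the control libraries. Its level was 210 and 196 CPM in exposed cells, against 189 and 188 CPM in control cells. The exposed libraries lay just above the controls, by less than the error of the fit. The log2 fold change was 0.10 (95% interval -0.13 to 0.34, edgeR adjusted p = 0.593), an interval that leaves room for a level between 0.917 and 1.26 times the control. Summed over the pair, the level was 416 ± 3.05 CPM in exposed cells and 491 ± 17.8 CPM in control cells (SD, n = 2 each). The SD in exposed cells is smaller than counting error alone would give and understates the error of the sum.

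**Figure D1:**
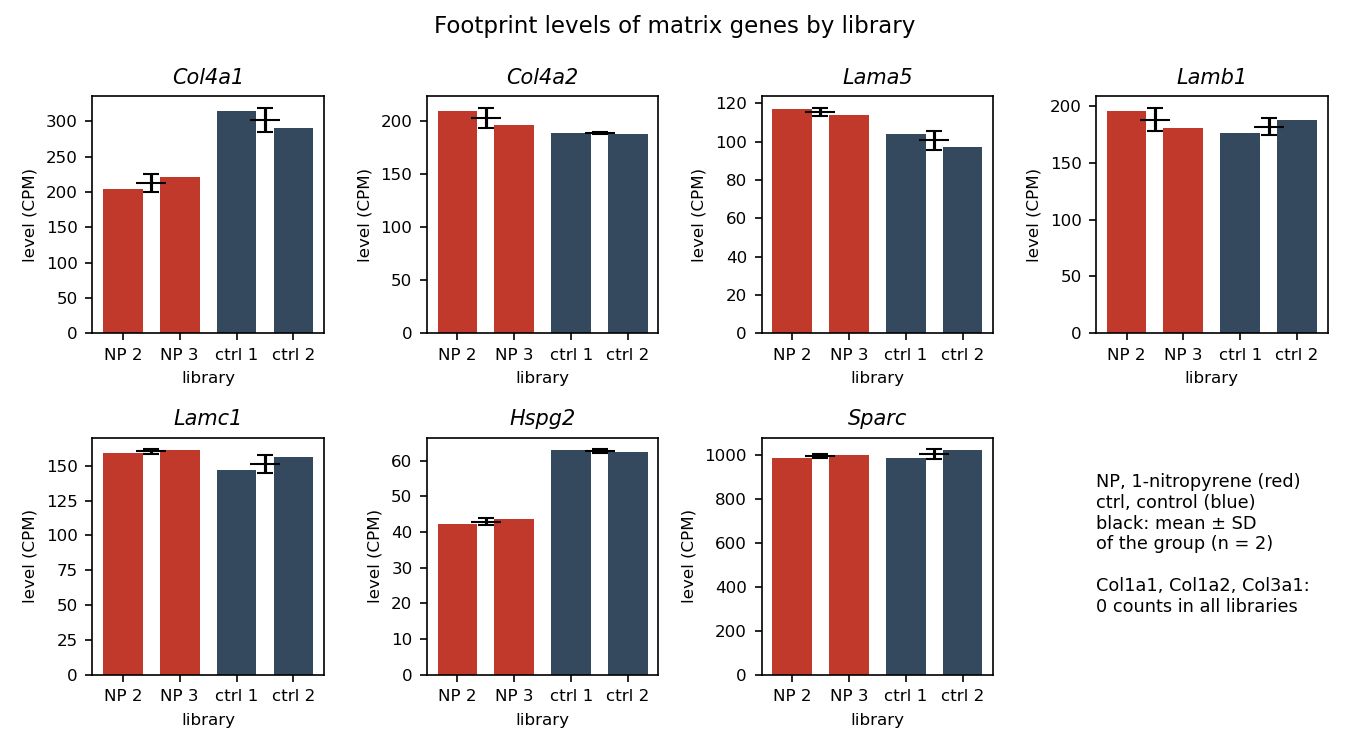
Footprint level in CPM (vertical axis from 0) of the 7 matrix genes with counts, 1 bar per library, with the mean ± SD of each group in black (n = 2). Col4a1 and Hspg2 were lower in both 1-nitropyrene libraries than in both control libraries, and Col4a2, Lamc1 and Lama5 were higher in both. Of all genes tested, 28.7% were lower and 28.6% higher in this way. Sparc lay at 990 to 1002 CPM in exposed cells and 990 to 1022 CPM in control cells.

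The ratio of the collagen IV chains within a library does not depend on how libraries are scaled. Col4a1 took 49.3% of the pair's 481 counts in 1-nitropyrene replicate 2 (exact 95% binomial interval 44.7% to 53.8%) and 53.0% of 528 in replicate 3 (48.7% to 57.4%). In the controls it took 62.4% of 662 counts in replicate 1 (58.6% to 66.1%) and 60.7% of 567 in replicate 2 (56.5% to 64.7%). Neither exposed share came within the range of the control shares, though the intervals of 1-nitropyrene replicate 3 and control replicate 2 overlapped. As a ratio of counts, Col4a1 over Col4a2 was 0.971 and 1.13 in exposed cells, against 1.66 and 1.54 in control cells. The mean log2 ratio differed by -0.61 between the groups (exact two-sided permutation test, p = 0.333, the smallest that 2 against 2 allows). From the fit, with both genes taken as independent, the log2 fold change of Col4a1 was below that of Col4a2 by -0.61 (95% interval -0.92 to -0.31). The pair was picked out after its values were seen, as were the other 11 ratios computed.

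**Figure D2:**
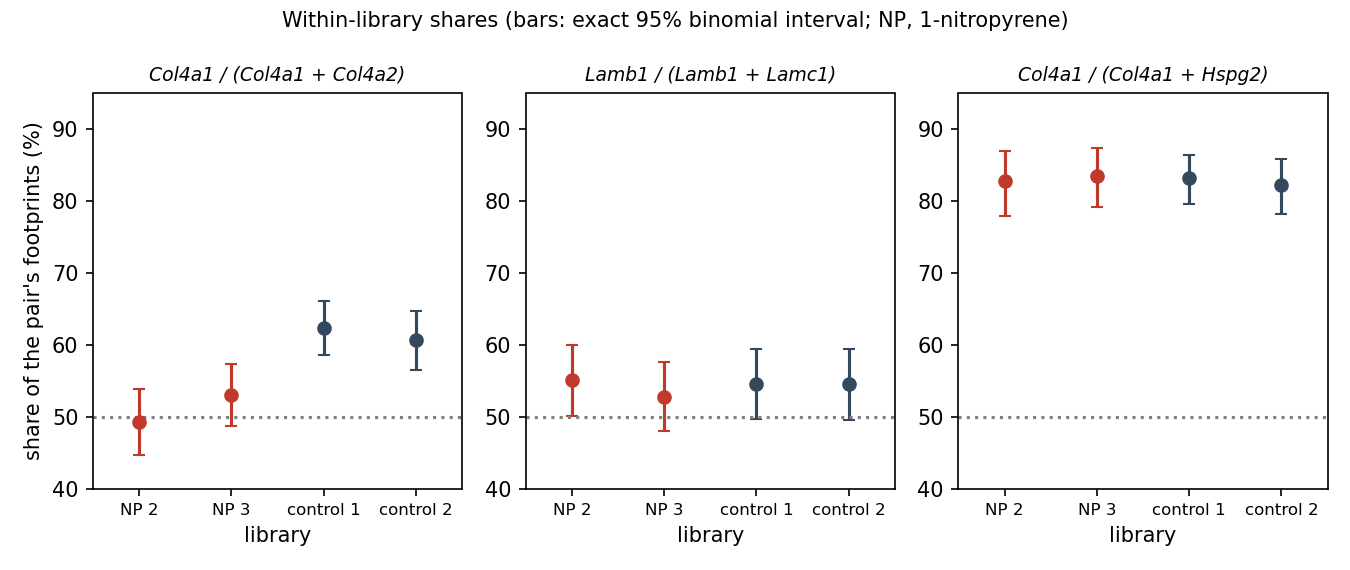
Share of a gene pair's counts taken by its first gene in each library (percent, axis from 40), with exact 95% binomial intervals; the dotted line marks 50%. The Col4a1 share of the collagen IV pair was 49.3% and 53.0% with 1-nitropyrene and 62.4% and 60.7% in controls, whereas the Lamb1 and Lamc1 pair and the Col4a1 and Hspg2 pair kept overlapping shares.

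The laminin chains did not pass the test in either direction. Lamb1 (ENSMUSG00000002900, chr12:31265146-31329644), the beta 1 chain, had 227 and 228 counts in the 1-nitropyrene libraries and 232 and 222 in the control libraries. Its level was 195 and 181 CPM in exposed cells, against 176 and 187 CPM in control cells, so that the groups overlapped. Its log2 fold change was 0.047 (95% interval -0.19 to 0.28, edgeR adjusted p = 0.844).

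Lamc1 (ENSMUSG00000026478, chr1:153218922-153332786), the gamma 1 chain shared by most laminins, had 185 and 204 counts in exposed cells and 193 and 185 in control cells. The levels were 159 and 162 CPM with 1-nitropyrene and 147 and 156 CPM in controls. The exposed libraries stood slightly above the controls, by less than the error of the fit (log2 fold change 0.084, 95% interval -0.18 to 0.34, edgeR adjusted p = 0.723).

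Lama5 (ENSMUSG00000015647, chr2:180176373-180225904), the alpha 5 chain, which carries the main sites for binding integrins and other cell surface receptors, had 136 and 144 counts in the 1-nitropyrene libraries and 137 and 115 in the control libraries. Its level was 117 and 114 CPM in exposed cells, against 104 and 97.0 CPM in control cells. The groups did not overlap in CPM, yet the log2 fold change of 0.20 had a 95% interval of -0.12 to 0.51 (edgeR adjusted p = 0.431). These counts allow a rise of up to 1.43-fold and a level down to 0.921 of the control.

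The ratios of the laminin chains within libraries varied less than those of the collagen IV pair. Lamb1 counts were 1.23 and 1.12 times those of Lamc1 in exposed cells, against 1.20 and 1.20 times in control cells, which overlap. Lama5 counts were 0.735 and 0.706 of those of Lamc1 in exposed cells and 0.710 and 0.622 in control cells, which overlap as well. Lama5 counts over those of Lamb1 were 0.599 and 0.632 in exposed cells and 0.591 and 0.518 in control cells, apart by less than the spread between the controls. The difference between the log2 fold changes of Lamb1 and Lamc1 was -0.037 (95% interval -0.39 to 0.32), so a shift of the size seen in the collagen IV pair lies outside its interval. For Lama5 against Lamc1 it was 0.11 (95% interval -0.30 to 0.52). Summed over the 3 chains, the level was 464 ± 10.8 CPM with 1-nitropyrene and 434 ± 9.15 CPM in control cells (SD, n = 2 each). Here too the SDs are smaller than counting error alone would give.

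Hspg2 (ENSMUSG00000028763, chr4:137468751-137570630), which codes for the core protein of perlecan, had 49 and 55 counts in the 1-nitropyrene libraries and 83 and 74 in the control libraries. Its level was 42.2 and 43.6 CPM in exposed cells, against 63.1 and 62.4 CPM in control cells. The groups did not overlap, but each was tighter than counting error alone would give, so that tightness understates the error. The counts are few and the error of the fit is wide. The level in exposed cells was 68.3% of the control (log2 fold change -0.55 ± 0.23 SE, 95% interval of the fold change 0.499 to 0.937), with an unadjusted p of 0.0178 and an adjusted p of 0.0840 in the edgeR fit, which misses the threshold. Among all genes tested, 29.9% had an unadjusted p under 0.05. With libraries scaled to their total counts the adjusted p of Hspg2 was 0.0159.

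The point estimates of Hspg2 and Col4a1 were close to each other. Col4a1 counts were 4.84 and 5.09 times those of Hspg2 in exposed cells, against 4.98 and 4.65 times in control cells, so that the ratios overlapped. The difference between their log2 fold changes was 0.044, with a 95% interval of -0.45 to 0.54 that does not show that they moved alike. Against Lamc1, Hspg2 counts were 0.265 and 0.270 in exposed cells and 0.430 and 0.400 in control cells, with no overlap (exact two-sided permutation test, p = 0.333). The edgeR fit put the log2 fold change of Hspg2 below that of Lamc1 by -0.63 (95% interval -1.16 to -0.11). That interval rests on SEs of 0.23 for Hspg2 and 0.13 for Lamc1. DESeq2 gave larger SEs, 0.36 and 0.21, which would make it wider. The ratio of Hspg2 to Lamc1 was 1 of 12 picked after the values were seen, and its interval is not adjusted for that. It uses the same Hspg2 counts as the test that missed the threshold and is no separate evidence.

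Sparc (ENSMUSG00000018593, chr11:55394159-55420080) codes for a secreted protein that binds collagens and calcium and is found both in basement membranes and at sites of tissue repair. It had 1150 and 1265 counts in the 1-nitropyrene libraries and 1302 and 1212 in the control libraries. Its level was 990 and 1002 CPM in exposed cells, against 990 and 1022 CPM in control cells, and the groups overlapped. The log2 fold change was -0.015 with the narrowest interval of the 7 genes (95% interval -0.12 to 0.087, edgeR adjusted p = 0.893), which leaves room for a level between 0.922 and 1.06 times the control. Sparc had the most counts of the 7 genes.

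Sparc was also used as a yardstick within each library, picked after its values were seen. Its own level was steady with TMM but was called lower with total counts (edgeR adjusted p = 0.0043). Col4a1 counts were 20.6% and 22.1% of the Sparc counts in exposed cells, against 31.7% and 28.4% in control cells. Col4a2 counts were 21.2% and 19.6% of the Sparc counts with 1-nitropyrene and 19.1% and 18.4% in controls. The fit put the log2 fold change of Col4a1 below that of Sparc by -0.49 (95% interval -0.72 to -0.27), while for Col4a2 the difference from Sparc was 0.12 with an interval that includes 0 (-0.13 to 0.37). These values share their counts with the ratio of the collagen IV chains and are no separate evidence on it. Hspg2 counts were 4.26% and 4.35% of the Sparc counts in exposed cells, against 6.37% and 6.11% in control cells.

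**Figure D3:**
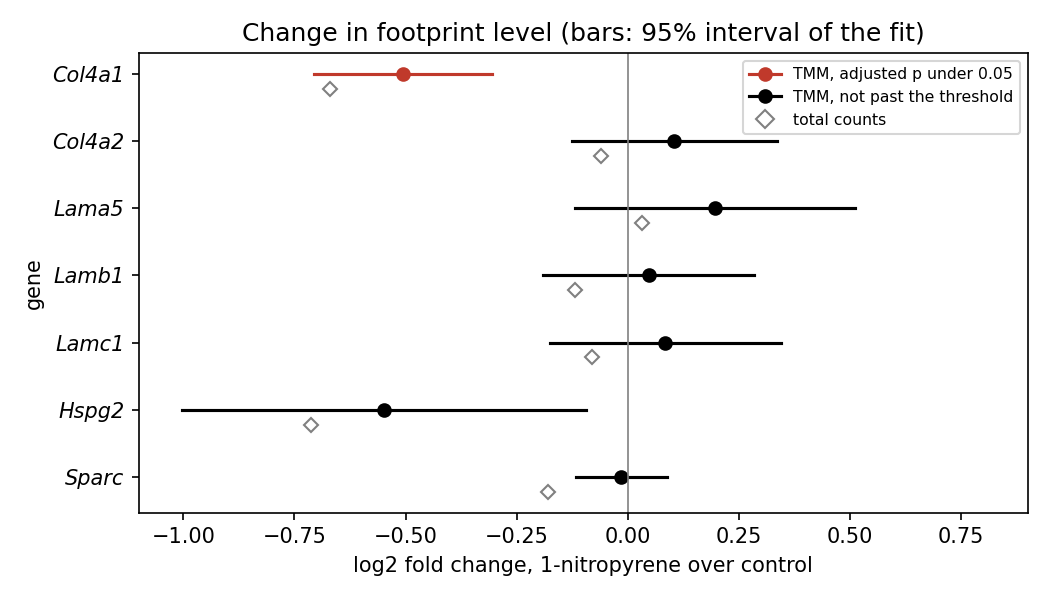
Log2 fold change of 1-nitropyrene over control for the 7 matrix genes, with the 95% interval of the edgeR fit after TMM scaling (circles) and the value after scaling to total counts (diamonds). The interval of Col4a1, -0.71 to -0.30, lies below 0 and its adjusted p passed the threshold, that of Hspg2 lies below 0 but did not pass after adjustment, and the intervals of the other 5 genes include 0.

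Across the 7 genes, 1 was called lower, 0 were called higher and 6 did not pass the test. Their median log2 fold change was 0.047, against -0.0076 over all genes tested. The 1-nitropyrene libraries were both below the controls for Col4a1 and Hspg2 and both above for Col4a2, Lamc1 and Lama5; the groups were thus apart for 5 of the 7 genes, against 57.3% of all genes tested, 28.7% below in this way and 28.6% above. Summed over the 6 basement membrane genes, the level was 923 ± 6.78 CPM in exposed cells and 988 ± 9.14 CPM in control cells (SD, n = 2 each), or 0.934 of the control. The SDs are smaller than counting error alone would give, so they understate the error of this sum. Within that sum, the laminin level was 1.07 times the control and the collagen IV level 0.847 times. These values have no interval and hold for TMM scaling only. With total counts the log2 fold change was -0.12 for Lamb1 and -0.080 for Lamc1, while Lama5 kept its sign, so a rise of the laminins is not shown.

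**Figure D4:**
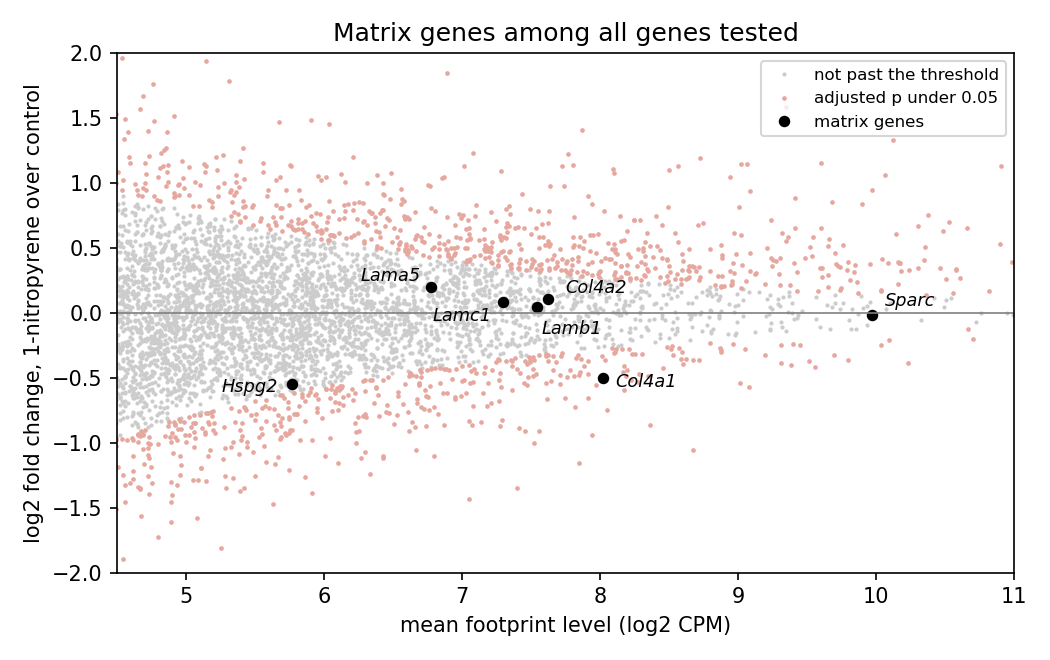
Log2 fold change of 1-nitropyrene over control against mean footprint level (log2 CPM) for the genes tested, with the 7 matrix genes in black; the axes are limited to the range that holds them. Col4a1 lies among the genes called lower, Hspg2 at the edge of the called genes at its level, and the others near 0.

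The sign of the small changes depends on the scaling. Scaling to total counts moved the median log2 fold change of all genes tested to -0.17, and with it Col4a2 to -0.060, Lamb1 to -0.12 and Lamc1 to -0.080, while Lama5 stayed above 0 at 0.032. Under that scaling Col4a1 was at -0.67 (edgeR adjusted p = 6.84e-09), Hspg2 at -0.71 and Sparc at -0.18 (edgeR adjusted p = 0.0043), so that 3 matrix genes were called lower, against 14.4% of all genes. Relative to the median of all genes, Col4a1 was at -0.50 with either scaling, Hspg2 at -0.54 and Sparc at -0.0070 with TMM and -0.0074 with total counts. These values had to match, since a change of scaling moves all genes by nearly the same amount, so the match is no test of the changes. The call for Col4a1 held when any 1 library was left out, with adjusted p between 0.00055 and 0.0390, and with the DESeq2 Wald test (adjusted p = 0.0317), which called 10.7% of the genes it gave an adjusted p, 2.66% as lower.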

How the data were processed

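The authors deposited whole-number footprint counts per Ensembl gene ID, with no normalization, in 1 column per library. The submitters' processing notes name DESeq2, HISAT2, featureCounts, Bowtie and cutadapt with build mm10; for versions, settings, annotation and fragment lengths, nothing is given in the sources used here. The table has 0 lines without a gene ID. The RefSeq table of GRCm38.p6 (49997 genes) gives an Ensembl ID for 0 genes, so the marker and pathway lists drawn up could not be matched and are not analysed here; positions and promoters were looked up by symbol.

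Genes were kept with filterByExpr (minimum count 10, minimum total 15), which left 7719 IDs. Libraries were scaled with TMM and compared by edgeR's quasi-likelihood F test (edgeR 4.0.16, R 4.3.3) without covariates, adjusted by Benjamini-Hochberg over all genes tested, with a threshold of 0.05. The prior degrees of freedom were infinite, so each gene took its spread from the trend. Standard errors of the edgeR fit were the absolute log2 fold change before edgeR's shrinkage, divided by the root of F. The intervals were centred on the log2 fold change after that shrinkage, which is the value printed. The edgeR script was tested on simulated data. Alternatives used DESeq2 1.42.0 and limma 3.58.1. Library pairs differed beyond sampling noise within groups (chi-square per degree of freedom 1.55 and 1.61), so none was taken as a copy. The naming rule was to give all 10 genes; genes and lists were chosen with earlier results of these data known.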

Additional observations from a re-analysis of the deposited data

How the results depend on the processing

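No paired analysis was possible because replicate 2 is the only number found in both groups. Footprint density per coding length was not run, as no coding lengths were used. Against 1332 genes called, 585 lower and 747 higher, total counts gave 1110 lower and 406 higher, with 3 matrix genes lower; DESeq2 311 (77 lower, 234 higher); DESeq2 on the genes edgeR tested, added after seeing the data, 345 (102 and 243). Requiring 2-fold left 404 (222 and 182) and 0 matrix genes, since Col4a1 at -0.51 is under it. Without 1 library at a time, where a group of 1 borrows the spread of the other, the counts were 572 to 834 genes, 190 to 354 lower and 382 to 480 higher. The small changes of genes not called turned sign with total counts (Col4a2 -0.060, Lamb1 -0.12, Lamc1 -0.080), and Sparc turned with no filter (0.0012), without control replicate 2 (0.014) and without 1-nitropyrene replicate 2 (0.0094), the values without 1 library running from -0.038 to 0.014. Counting Sparc as interstitial made that class 51.9% of the matrix counts with 1-nitropyrene and 50.5% in controls, against 0 without it. Hspg2 passed the threshold only with total counts among the alternatives run. Its adjusted p otherwise ran from 0.0839 to 0.466, and its counts of 49 to 83 limit it. The cause of these changes was not tested.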
